A study of Mus musculus with 4 samples.

Results

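The genes described here are the immediate early and stress-response transcription factors of meningeal lymphatic endothelial cells, with the regulators that act beside them: the AP-1 genes of the FOS and JUN families, the ATF, CREB, CEBP and small MAF genes, the Krüppel-like factors, EGR, NR4A and IER genes, SRF and the CSRNP genes, the MYC and MXD genes, the SOCS genes with Stat3, the RNA-decay and antiproliferative ZFP36 and BTG genes, and the PER clock genes. They were chosen by the spelling of the gene symbol. The spelling picked 56 of the 9114 rows of the table, and all 56 passed the filter of a mean of at least 10 normalised counts. Of these, 49 belong to the families named, and 7 (Atf7ip, Cebpz, Cebpzos, Zfp362, Zfp365, Zfp366 and Zfp369) matched by spelling alone. The same spelling fits 107 protein-coding symbols of the GENCODE annotation. The other 51, among them Junb, Jund, Fosb, Egr2, Ier2, Nr4a1, Socs3 and the Gadd45 genes, are not analysed here.

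RNA was sequenced from meningeal lymphatic endothelial cells of aged male mice (strain C57BL/6J, 20 to 24 months old). An AAV1 vector with a CMV promoter, 5 µL into the cisterna magna, had delivered mouse VEGF-C (mVEGF-C) or, in controls, the fluorescent protein eGFP, and the cells were taken 4 weeks later. The CMV promoter is not restricted to a cell type, so the cells that made VEGF-C are not defined by the design. The sort took live cells with CD31 and podoplanin but without CD45, and the meninges of 10 mice were pooled for each of the 2 libraries of a group. Untreated mice are not analysed here, and both groups carried the vector and the injection. With pooled mice the values show the spread between pools, not between animals.

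Immediate early genes are transcribed within minutes of a stimulus, before any new protein is made. MAP kinases and protein kinase A phosphorylate factors that already sit in the nucleus, such as SRF with its partners and CREB, and these switch on Fos, Jun, Egr1, Atf3 and others. FOS, JUN, ATF, CREB, MAF and CEBP proteins share a basic region that contacts DNA and a leucine zipper through which they pair, so the target of each depends on its partner. In endothelium Klf2 and Klf4 are known as factors induced by fluid flow. VEGF-C signals through VEGFR3 to the ERK and AKT kinases, which lie upstream of several of these genes, and the comparison of mVEGF-C with eGFP addresses whether the delivered factor left a trace on them. Many of these genes are also known to respond when tissue is dissociated into single cells, and the part of cell preparation in the values was not tested.

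To show what lies before the start sites of the genes on which the results turn, the 250 bases upstream of the RefSeq start (GRCm38.p6) are printed for Atf5 (the first of its 2 starts), the 1 gene of the 56 with an adjusted p under 0.05 in limma, for Atf3 and Mxd4, which were among the lowest, for Srf, which was among the highest, and for Fos and Jun, the founding AP-1 genes. Capitals mark the CRE core (TGACGT or, on the other strand, ACGTCA), the AP-1 heptamer (TGANTCA), the CArG box of SRF and the E-box of MYC and MXD proteins (CACGTG).
Atf5, chr7:44816659-44816908, minus strand: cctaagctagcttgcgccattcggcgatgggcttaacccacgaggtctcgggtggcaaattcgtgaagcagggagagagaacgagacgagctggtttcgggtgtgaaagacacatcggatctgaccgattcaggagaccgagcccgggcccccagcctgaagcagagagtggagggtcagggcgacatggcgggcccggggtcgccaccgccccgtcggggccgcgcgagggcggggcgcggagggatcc
Atf3, chr1:191183334-191183583, minus strand: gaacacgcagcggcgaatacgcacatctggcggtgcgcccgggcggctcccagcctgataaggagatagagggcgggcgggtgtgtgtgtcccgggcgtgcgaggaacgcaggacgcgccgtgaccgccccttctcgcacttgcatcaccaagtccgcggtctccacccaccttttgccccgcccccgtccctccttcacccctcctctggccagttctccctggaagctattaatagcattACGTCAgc
Fos, chr12:85473640-85473889, plus strand: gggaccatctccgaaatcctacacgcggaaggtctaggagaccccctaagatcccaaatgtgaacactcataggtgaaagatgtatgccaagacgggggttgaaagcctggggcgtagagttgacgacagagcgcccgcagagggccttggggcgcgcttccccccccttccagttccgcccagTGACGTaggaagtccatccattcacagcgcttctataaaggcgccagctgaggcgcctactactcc
Jun, chr4:95052223-95052472, minus strand: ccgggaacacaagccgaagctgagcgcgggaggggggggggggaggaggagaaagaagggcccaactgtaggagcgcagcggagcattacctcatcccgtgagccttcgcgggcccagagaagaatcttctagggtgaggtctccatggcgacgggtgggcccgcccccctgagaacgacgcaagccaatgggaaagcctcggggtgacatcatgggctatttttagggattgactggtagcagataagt
Srf, chr17:46556163-46556412, minus strand: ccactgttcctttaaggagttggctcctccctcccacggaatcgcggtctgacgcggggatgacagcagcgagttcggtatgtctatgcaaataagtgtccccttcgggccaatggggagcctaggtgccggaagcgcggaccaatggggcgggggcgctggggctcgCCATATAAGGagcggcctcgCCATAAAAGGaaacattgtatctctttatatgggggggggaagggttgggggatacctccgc
Mxd4, chr5:34187711-34187960, minus strand: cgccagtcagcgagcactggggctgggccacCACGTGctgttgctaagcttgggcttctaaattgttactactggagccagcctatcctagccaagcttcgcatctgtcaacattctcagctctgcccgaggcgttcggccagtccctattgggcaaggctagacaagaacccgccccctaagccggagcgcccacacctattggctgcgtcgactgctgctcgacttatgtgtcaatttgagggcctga

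Upstream sequence was found for 41 of the 56 genes in 47 windows, since some have more than 1 start. The windows of Fosl2, Klf3 and Zfp36 and a window of Mxi1 lay wholly within annotated exons (250 bases). That of Csrnp2 nearly did (249 bases), and some others did in part. The Zfp36 window held a CArG box. The CRE core was present in 10 of the 47 windows (21.3%) and in 6.47% of the 32851 windows of all genes. The GC box (GGGCGG or CCGCCC, not capitalised above) was in 38 of 47 windows (80.9%) against 32.7%. The E-box was in 9 windows (19.1% against 6.02%), the CArG box in 3 (6.38% against 1.47%) and the AP-1 heptamer in 2 (4.26% against 6.75%). Both strands were searched, and a base can belong to more than 1 motif. Fos carried a CRE core 66 bases before its start and Atf3 carried one at 8 bases. Srf carried CArG boxes at 82 and 62 bases, the element that its own protein binds, and Mxd4 an E-box at 219 bases. Neither Atf5 nor Jun held any of these 4 motifs in the window printed. The shares describe the letters in these windows only.

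The recovered depth was 25610683 to 28632461 reads per library, and the 56 genes took 0.518% to 0.626% of the normalised counts per library. The libraries carried the markers of lymphatic endothelium at a summed 473403 to 601045 normalised counts over 8 of 9 listed markers, with Ccl21a, Mmrn1 and Reln the highest. Fibroblast markers were present too, with 6 of 9 listed genes at a summed 34809 and 76675 in the eGFP and 49882 and 81317 in the mVEGF-C libraries, and their part in the results below was not tested. Of 8 macrophage and microglia markers 3 had a row, and nearly all of their sum was Mrc1 at 23299 to 32880, a gene that lymphatic endothelium also expresses. Itgam had 698 and 310 in eGFP and 76.9 and 123 in mVEGF-C libraries, and Cx3cr1 had 196 and 387 against 328 and 426. Fold changes of the 3 were above 0 for 1 and below 0 for 2, with 0 called by limma. The part of these markers in the results was not tested. Lymphocyte and neuron or glia markers stayed at a summed 278 to 1321, and Cd3e was at 0 in mVEGF-C 1. Blood endothelial markers (5 of 6) summed to 16942 and 17507 in eGFP and 13353 and 27501 in mVEGF-C libraries, where mVEGF-C 2 was the highest and mVEGF-C 1 the lowest. Among them Selp, which encodes P-selectin, had 3122 and 6120 in eGFP and 144 and 1969 in mVEGF-C libraries. Plvap went the other way, with 6226 and 5250 in eGFP and 8604 and 16377 in mVEGF-C libraries. Of the 5 genes 3 had fold changes above 0 and 2 below, and limma called none. Mural cell markers (3 of 6 genes) summed to 17844 and 13189 in eGFP and 12222 and 10029 in mVEGF-C libraries, and general endothelial markers (6 of 6) to 75196 and 86474 against 97821 and 95481, each with separate groups, and their part in the results was not tested either. In these bulk libraries fewer cells of a type and less RNA per cell cannot be told apart.

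Across the 56 genes, limma called 1. Atf5, a basic leucine zipper factor known for its part in the mitochondrial unfolded protein response, rose in the mVEGF-C libraries. Atf3 and Klf10, both known as rapidly induced genes, had the lowest values in mVEGF-C relative to eGFP, and Fosl2 and Mycn had the next highest after Atf5, but none of these 4 passed the limma test. The test was limma on log2(normalised count + 1) with 2 libraries in each group. A call is an adjusted p (Benjamini-Hochberg, over the 9063 genes tested) under 0.05. The 1 call is 1.79% of the 56 genes, against 2.14% of all genes tested (0.828% higher and 1.31% lower), so the share was near the background. At an unadjusted p under 0.05 there were 3 higher and 4 lower, 12.5% against 11.8% of all genes (5.09% higher and 6.7% lower). The 4 lower became 6 in DESeq2, where the number over all genes was 765 lower, against 607 in limma. Both the number of lower members and that over all genes also changed with 1 library left out. In edgeR the 1 call was also Atf5, where 1.61% of all genes were called (0.739% higher, 0.872% lower). DESeq2 called 4 of the 54 members to which it gave an adjusted p (7.41%), Atf5 and Fosl2 higher and Atf3 and Klf10 lower, where its background was 7.09% (3.32% higher, 3.78% lower). Fold changes were above 0 for 26 and below 0 for 30, with a median of -0.15 on the log2 scale against -0.02 over all genes, and -0.01 for the 49 family members alone. The median absolute log2 fold change was 0.82 against 0.79. The sign of the median turned to 0.20 without eGFP 2, to 0.27 without mVEGF-C 1 to 0.028 in edgeR and to 0.0020 in DESeq2.

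**Figure D1:**
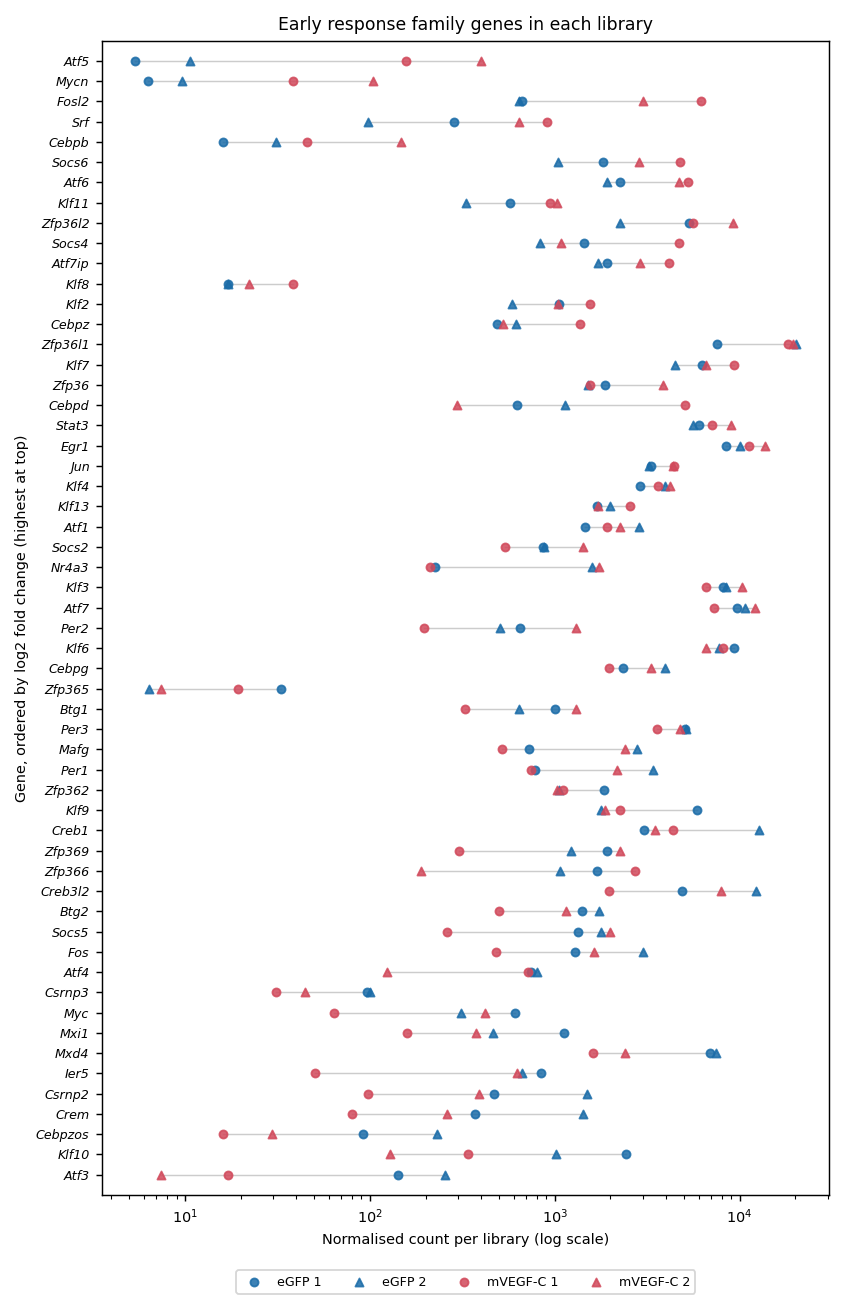
Normalised counts (log axis) of the 56 genes in each of the 4 libraries, ordered by log2 fold change with the highest at the top. Blue marks eGFP and red mVEGF-C, circles and triangles are the libraries numbered 1 and 2, and grey lines span the range: Atf5 at the top has both red points at 156 or more and both blue points at 10.7 or less, while in the middle rows the colours mix.

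Values of mVEGF-C and eGFP libraries were fully separate in 27 of the 56 genes (48.2%), with mVEGF-C higher in 15 and lower in 12. Over all genes tested the share was 39.2%, with 19.4% higher and 19.8% lower. With only 2 libraries against 2, a gene whose groups do not overlap can still have a difference smaller than the spread in the fit.

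Of the ATF and CREB genes (9 members), 3 had fold changes above 0 and 6 below, and this family held both the highest and the lowest value of the whole set. Atf5 (chromosome 7, 44812256 to 44816658) had 5.37 and 10.7 normalised counts in eGFP libraries 1 and 2, against 156 and 397 in mVEGF-C libraries 1 and 2, the order used throughout. Both mVEGF-C libraries lay far above both eGFP libraries, and the smaller of them was still higher than the larger eGFP value by 3.74 on the log2(reads + 1) scale. Group means were 276 ± 170.2 against 8.03 ± 3.76 (SD, n = 2 each). On the log2 scale it rose by 4.86, with SE 1.31 and a 95% interval of 2.28 to 7.43 (limma, adjusted p = 0.0163). It ranked 33 of 9063 genes from the highest fold change. Atf5 was a low gene even so, and it passed the filter of a mean of at least 10 only through its mVEGF-C values. Without that filter its adjusted p was 0.0156 (limma). Its mean of 71.3 normalised counts per kilobase of exon lay just above the lower quartile of the genes with a length, 71.2. Its exons share 82 bases (4.11% of their length) with Nup62 and Il4i1 on the other strand, which have no row in the table.

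The Atf5 call held in edgeR (adjusted p = 0.0322) and DESeq2 (adjusted p = 3.05e-05) on the recovered reads. It was lost without a variance trend (limma, adjusted p = 0.0584) and, in limma, without eGFP 1 (log2 fold change 4.42, adjusted p = 0.386), eGFP 2 (5.29, 0.468) or mVEGF-C 2 (4.18, 0.0781). The rows of the table reach gaps of at most 2.83 within the eGFP pair and 4.24 within the mVEGF-C pair on the log2(reads + 1) scale, and genes with wider pairs are not analysed here, so p-values are too small by an unknown amount.

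Atf3, a stress-induced factor that can repress or activate AP-1 and CRE targets, stood at the other end. Its values were 141 and 254 normalised counts in eGFP and 17.1 and 7.43 in mVEGF-C libraries, so the groups did not overlap. On the log2 scale the difference was -3.95 (SE 1.31, 95% interval -6.52 to -1.38), which did not pass the test (limma, adjusted p = 0.084). DESeq2 did call it (adjusted p = 0.00156), while edgeR did not (adjusted p = 0.11).

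Crem, which encodes cAMP-responsive activators and repressors, had 373 and 1428 in eGFP and 80.1 and 262 in mVEGF-C libraries. Both mVEGF-C values were below both eGFP values, with a log2 fold change of -2.32 ± 1.22 (SE), not called (limma, adjusted p = 0.446). Atf4, the effector of the integrated stress response, had 741, 805 and 719 in eGFP 1, eGFP 2 and mVEGF-C 1, and only mVEGF-C 2 was apart at 124. Without that library its log2 fold change went from -1.36 to -0.10. Atf6, a sensor of misfolded protein in the endoplasmic reticulum, had 2258 and 1910.2 in eGFP and 5239.9 and 4709 in mVEGF-C libraries. Its groups did not overlap and its pairs were tight, but the log2 fold change of 1.26 (95% interval -0.34 to 2.86) was not called (limma, adjusted p = 0.615).

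Atf7, an ATF2-like partner of JUN proteins and the member of the family with the highest mean count, had 9717 and 10690.5 in eGFP and 7230.1 and 12063 in mVEGF-C libraries. The mVEGF-C values lay on both sides of the eGFP pair, and the log2 fold change was -0.13 (95% interval -1.20 to 0.95). Creb1, the CREB protein itself, was set apart by 1 control library, eGFP 2, at 12812 against 3034 to 4387 in the other 3. Creb3l2, a membrane-bound factor of the secretory pathway, had 4903 and 12194 in eGFP and 1965 and 7963 in mVEGF-C libraries. Atf1, a close relative of Creb1, ranged from 1467 to 2874 with overlapping groups.

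**Figure D2:**
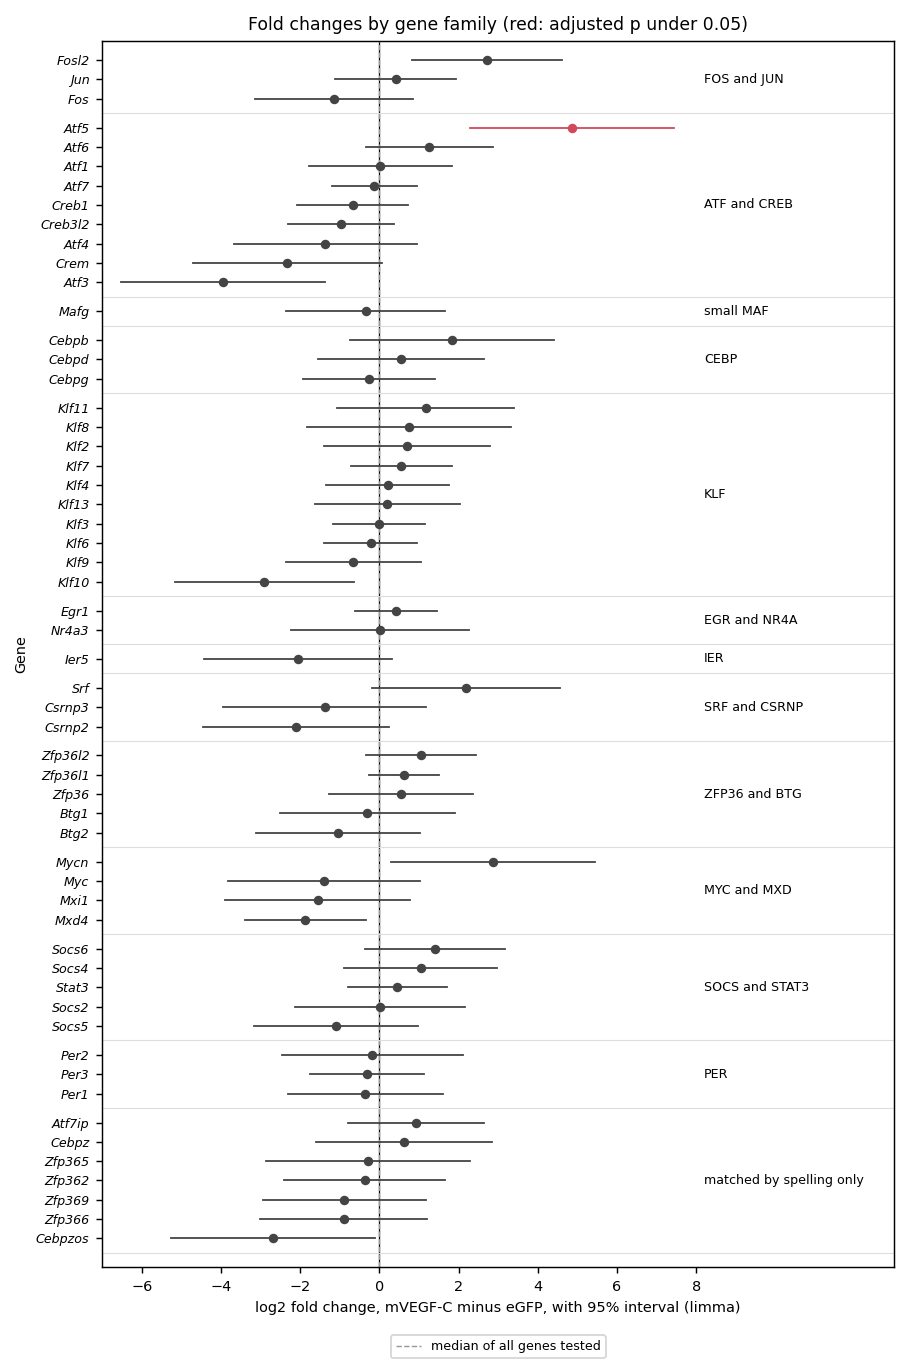
Log2 fold change (mVEGF-C minus eGFP) of each gene with its 95% interval from limma, grouped by family, with the median of all genes tested as a dashed line. Only Atf5 (red, 4.86) was called, and the intervals of most genes cross 0.

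Among the AP-1 genes themselves, Fosl2 and Jun had higher values in both mVEGF-C libraries and Fos overlapped, and limma called none of the 3. Fosl2, which encodes FRA-2, a FOS protein without the strong activation domain of FOS, had 664 and 641 in eGFP and 6206 and 3000.0 in mVEGF-C libraries. The eGFP libraries were nearly equal and both mVEGF-C libraries were higher, a 7.05-fold ratio of means. The log2 fold change of Fosl2 was 2.72 (SE 0.97, 95% interval 0.83 to 4.62; limma, adjusted p = 0.125). DESeq2 called it (adjusted p = 0.0128) and edgeR did not (adjusted p = 0.117). Fosl2 kept a log2 fold change of 2.20 to 3.25 with any 1 library left out.

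Jun had 3306 and 3249.6 in eGFP and 4391 and 4339 in mVEGF-C libraries. Both pairs were close, with gaps of 0.02 on the log2 scale in each group, and the groups were separate. The log2 fold change was 0.41 and its 95% interval -1.11 to 1.93 (limma, adjusted p = 0.925), because the fit took its spread from genes of similar level rather than from Jun itself. Fos, the partner of Jun, had 1292 and 3015 in eGFP and 480 and 1631 in mVEGF-C libraries. The groups overlapped, and within each the libraries differed by 2.33-fold and 3.40-fold. The log2 fold change of Fos was -1.16 with a 95% interval of -3.15 to 0.84. Mafg, a small MAF protein that pairs with NRF2, had 727 and 2774 against 518 and 2403, with overlapping groups.

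Of the 3 CEBP genes, Cebpb, known from acute-phase and inflammatory responses, had 16.1 and 31.0 in eGFP and 45.9 and 148 in mVEGF-C libraries. The groups did not overlap, but the gene was low, its exons share 20.7% of their length with Tmem189 on the other strand, and the log2 fold change of 1.84 ± 1.31 (SE) was not called (limma, adjusted p = 0.668). Cebpd had 625 and 1136 in eGFP, 5066 in mVEGF-C 1 and 296 in mVEGF-C 2. The mVEGF-C libraries thus held both the highest and the lowest value. Their gap of 4.09 on the log2(normalised count + 1) scale was the widest of any pair here. Cebpg, which lacks an activation domain and dimerises with other CEBP and ATF proteins, had the highest mean count of the 3 at 1955 to 3963, with a log2 fold change of -0.26.

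The Krüppel-like factors (10 members, zinc-finger proteins that bind GC-rich boxes) had 6 fold changes above 0 and 4 below, with 0 called by limma or edgeR, 1 lower at an unadjusted p under 0.05 in both (11.8% of all genes had such a p in limma), and 1 called by DESeq2 (against 7.09% of all genes). Klf10, known as an early gene of TGF-beta signalling, had 2439 and 1019 in eGFP and 339 and 129 in mVEGF-C libraries. Both mVEGF-C values were below both eGFP values, and the log2 fold change was -2.91 (SE 1.15, 95% interval -5.17 to -0.64; limma, adjusted p = 0.203). DESeq2 called Klf10 (adjusted p = 0.0221), and edgeR did not (adjusted p = 0.254).

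For the flow-responsive factors the groups overlapped. Klf2 had 1049 and 584 in eGFP and 1550.1 and 1039 in mVEGF-C libraries, so the groups narrowly overlapped, at a log2 fold change of 0.70 (95% interval -1.40 to 2.80). Klf4 had 2884 and 3935 against 3617 and 4182, a log2 fold change of 0.21 (95% interval -1.34 to 1.75). The intervals include no change as well as changes of more than 1 on the log2 scale in either direction. Klf3, the member with the highest mean count and a known repressor, had 8179 and 8399 against 6607 and 10277, and its log2 fold change was -0.01 (95% interval -1.16 to 1.14). Klf6 ranged from 6557 to 9302 with overlapping groups.

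Klf11, a close relative of Klf10, differed from it in sign, with 573 and 331 in eGFP and 941 and 1025 in mVEGF-C libraries. Its groups did not overlap, and the log2 fold change of 1.17 ± 1.14 (SE) was not called (limma, adjusted p = 0.804). Klf7 was also higher in both mVEGF-C libraries (9282 and 6553 against 6283 and 4466, log2 fold change 0.56), with 39.3% of its exon length shared with a noncoding gene on the other strand. In Klf9, known as a glucocorticoid-induced gene, eGFP 1 stood apart at 5889 while the other 3 libraries had 1790.5 to 2264. Klf13 ranged from 1684 to 2568 with overlapping groups, and Klf8 was low at 17.0 to 38.5.

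Egr1, an immediate early zinc-finger factor, had the second-highest level per exon length of the set and 8492 and 10024 in eGFP and 11206 and 13653 in mVEGF-C libraries. The groups did not overlap but lay close, with a log2 fold change of 0.42 and a 95% interval of -0.62 to 1.46 (limma, adjusted p = 0.87). Nr4a3, an orphan nuclear receptor of the early response, had 226 and 1597 in eGFP and 210.5 and 1744 in mVEGF-C libraries. Each group thus held 1 low and 1 high library, 7.08-fold and 8.29-fold apart, and the log2 fold change was 0.01 with a 95% interval of -2.24 to 2.26. The eGFP gap was 2.82 on the log2(normalised count + 1) scale.

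Ier5, an immediate early gene linked to the heat shock response, had 841 and 662 in eGFP libraries, 627 in mVEGF-C 2 and 50.2 in mVEGF-C 1. The low value of 1 library carried the difference: the log2 fold change was -2.06 with all libraries and -0.25 without mVEGF-C 1, and was not called (limma, adjusted p = 0.546). Srf, the factor that binds CArG boxes in Fos, Egr1 and actin genes, had 286 and 97.3 in eGFP and 903 and 640.1 in mVEGF-C libraries. Both mVEGF-C libraries were higher, and the log2 fold change was 2.18 ± 1.21 (SE), not called (limma, adjusted p = 0.496). Csrnp2, a nuclear protein of the AXUD1 family, had 472 and 1487 against 97.2 and 390.2, with separate groups and a log2 fold change of -2.10 ± 1.20 (SE; limma, adjusted p = 0.52). Its relative Csrnp3 was low, at 96.7 and 100.5 against 31.0 and 44.6.

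**Figure D3:**
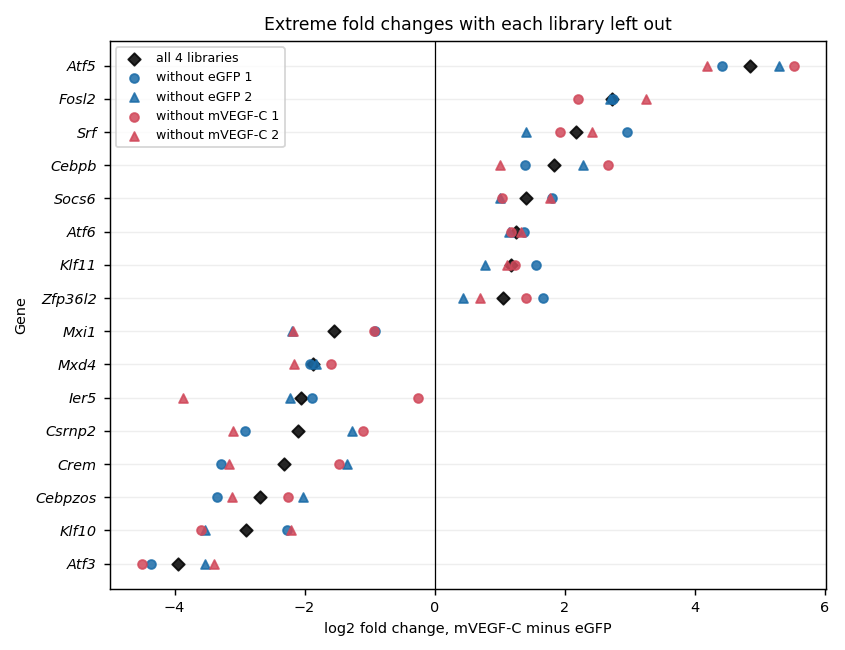
Log2 fold change of the 8 highest and 8 lowest genes with a mean of at least 50 normalised counts, with all 4 libraries (black) and with each library left out in turn. All 16 keep their sign, while Ier5 moves to -0.25 without mVEGF-C 1.

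The ZFP36 genes encode proteins that bind AU-rich elements and speed the decay of early response mRNAs. Zfp36l1 had the highest level of all 56 genes, 5484 normalised counts per kilobase of exon, which ranked 39 of the 7872 genes with a length. It had 7505 in eGFP 1 and 18389 to 20278 in the other 3 libraries, so the groups overlapped and the log2 fold change of 0.62 (95% interval -0.27 to 1.51) turned to -0.10 without eGFP 1. Noncoding Gm26669 on the other strand shares 55.9% of the exon length of Zfp36l1, so its reads may be partly of that gene where strand was not used. Zfp36l2 had 5333 and 2268 in eGFP and 5618 and 9261 in mVEGF-C libraries, just separate, with a log2 fold change of 1.05 ± 0.71 (SE; limma, adjusted p = 0.633). Zfp36 itself had 1866 and 1505 against 1552 and 3846. The antiproliferative Btg2 was lower in both mVEGF-C libraries (499 and 1156 against 1401 and 1740.2, log2 fold change -1.04) and Btg1 overlapped (-0.30), neither of them called.

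Among the MYC network genes, Mycn and the MYC antagonists had the larger differences. Mycn had 6.27 and 9.62 in eGFP and 38.5 and 104 in mVEGF-C libraries, separate but low, with a log2 fold change of 2.87 ± 1.31 (SE; limma, adjusted p = 0.323). Like Atf5, Mycn passed the filter of a mean of at least 10 only through its mVEGF-C values. Myc had 608 and 310.0 in eGFP and 64.1 and 421 in mVEGF-C libraries, which overlapped (log2 fold change -1.39). Mxd4, a repressor that competes with MYC for its partner MAX, had 6952 and 7480.5 in eGFP and 1616 and 2399.8 in mVEGF-C libraries. Its pairs were close and the groups far apart, a 3.59-fold ratio of means. The log2 fold change of Mxd4 was -1.87 (SE 0.78, 95% interval -3.40 to -0.35; limma, adjusted p = 0.235), and it stayed between -2.16 and -1.59 with any 1 library left out. Mxi1, of the same repressor family, had 1118 and 461 against 158 and 375, separate, with a log2 fold change of -1.55 ± 1.19 (SE; limma, adjusted p = 0.708).

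Stat3, the transcription factor of IL-6 type cytokines, had 6032 and 5601 in eGFP and 7081 and 8948 in mVEGF-C libraries. The groups were separate, with a log2 fold change of 0.45 (95% interval -0.79 to 1.70; limma, adjusted p = 0.893). The SOCS genes encode feedback inhibitors of cytokine and receptor tyrosine kinase signalling, and with Stat3 they had 0 calls and 0 unadjusted p under 0.05 in limma, edgeR and DESeq2. Socs6 had 1828 and 1048 against 4736 and 2847, separate, with a log2 fold change of 1.41 ± 0.90 (SE; limma, adjusted p = 0.606). Socs4 was high in mVEGF-C 1 alone, at 4682 against 836 to 1441 in the other 3 libraries, and Socs5 was low there, at 262 against 1341 to 1994. Socs2 ranged from 541 to 1416 with overlapping groups.

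Of the clock repressors, Per3 had the highest mean count and level per length, with 5084 and 5128 in eGFP and 3554 and 4761 in mVEGF-C libraries. The groups were separate by a small margin, at a log2 fold change of -0.31 (95% interval -1.74 to 1.12). Per1, which is also a CREB-driven early gene, had 786 and 3392 in eGFP and 744 and 2182 in mVEGF-C libraries. Per2 had 647 and 507 against 195 and 1304. Both overlapped, with log2 fold changes of -0.36 and -0.18.

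**Figure D4:**
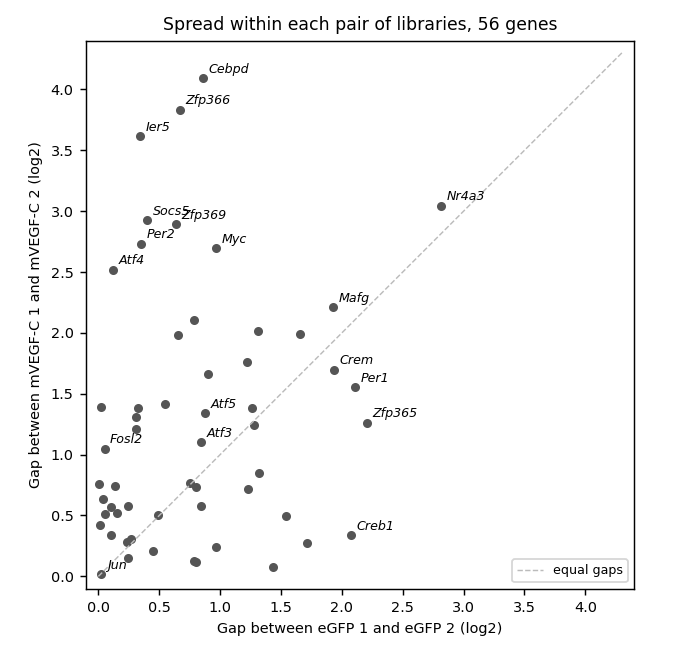
Gap between the 2 libraries of a group on the log2(normalised count + 1) scale for each of the 56 genes, eGFP on the horizontal and mVEGF-C on the vertical axis, with a dashed line of equal gaps. Jun lies near the origin with gaps of 0.02, Cebpd at the top with 4.09, and Nr4a3 is wide in both pairs at 2.82 and 3.04.

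The spread within pairs was wider in mVEGF-C for 38 of the 56 genes (67.9%), against 56.8% of all genes tested. The median gap was 0.71 in the eGFP pair and 1.07 in the mVEGF-C pair for these genes, and 0.94 and 1.07 over all genes, on the log2 scale. The wider limit on the mVEGF-C pairs allows larger gaps there, so these values do not compare the variability of the groups. In 7 genes, Creb3l2, Crem, Csrnp2, Fos, Mafg, Nr4a3 and Per1, the library numbered 2 was more than 2-fold above the library numbered 1 in both groups, a count made after the values were seen. That is 12.5% of the 56 genes, against 7% (634) of all genes tested. The reverse held for Klf10 and Zfp365 (3.57% against 6.37%).

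Per exon length, the set spanned 3.18 normalised counts per kilobase (Zfp365) to 5484 (Zfp36l1), with a median of 267.9 against 203.7 over the 7872 genes with a length. There were 20 of 56 (35.7%) above the upper quartile of all genes, 461.9. After Zfp36l1 came Egr1 at 2418, Klf6 at 1804, Zfp36l2 at 1592, Klf4 at 1199 and Jun at 1198. The lowest family members were Klf8 at 4.56, Csrnp3 at 5.53 and Mycn at 12.0. Length is that of all annotated exons of a gene, which understates genes whose cells use a short transcript.

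**Figure D5:**
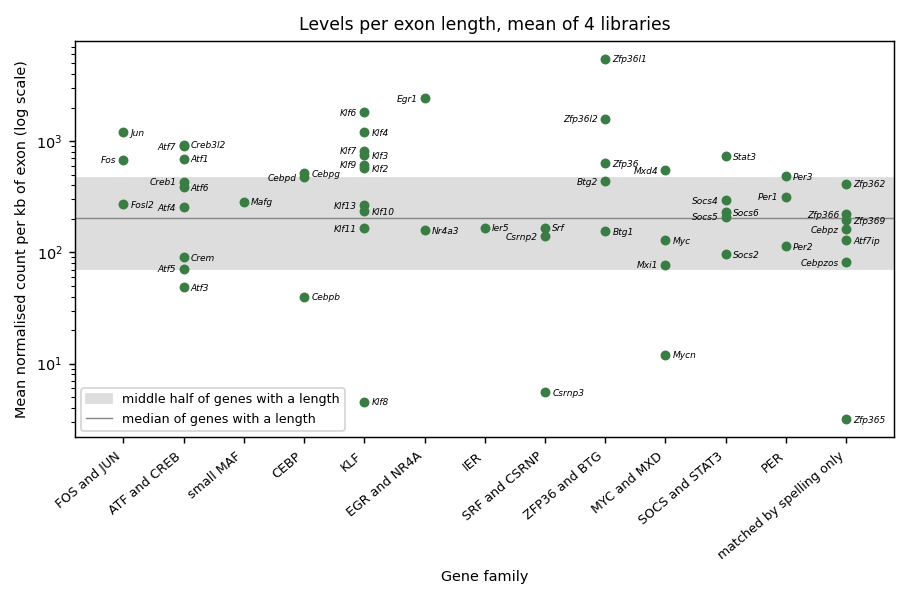
Mean normalised count per kilobase of exon over the 4 libraries (log axis) for each gene, by family, with the range between the quartiles of the 7872 genes with a length in grey (71.2 to 461.9) and their median as a line. Zfp36l1, Egr1, Klf6 and Zfp36l2 lie highest.

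The 7 genes matched by spelling alone had 2 fold changes above 0 and 5 below, and 0 calls in limma, edgeR or DESeq2, with 1 at an unadjusted p under 0.05 in each. Cebpzos, a gene beside Cebpz on the other strand, had 92.2 and 232 in eGFP and 16.02 and 29.7 in mVEGF-C libraries, with separate groups and a log2 fold change of -2.69 ± 1.31 (SE; limma, adjusted p = 0.381). It shares 15.1% of its exon length with Cebpz, whose log2 fold change was 0.62. Zfp366 ranged from 189 to 2702 and Zfp369 from 303 to 2260.4, each with both extremes in the mVEGF-C pair. Atf7ip, a chromatin cofactor, had a log2 fold change of 0.93, Zfp362 of -0.38 and the low Zfp365 of -0.28.

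Genes that act above or beside these factors were taken from lists of each pathway, and 8 of these lists are described. Of 15 SRF and CREB cofactors limma called 1 (6.67%, against 2.14% of all genes). Prkaca, the catalytic subunit of protein kinase A that phosphorylates CREB, had 551 and 1597 in eGFP and 2.14 and 31.6 in mVEGF-C libraries. Both mVEGF-C libraries were close to 0, and it fell by 6.54 on the log2 scale (SE 1.29) (limma, adjusted p = 0.000181). That call was lost without eGFP 2 (limma, adjusted p = 0.402) and without the variance trend (0.0541). Crtc1, a CREB coactivator, had 1941 and 2286 against 146 and 468, with a log2 fold change of -3.00, called by DESeq2 (adjusted p = 0.0246) and not by limma (adjusted p = 0.158).

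Of 6 MYC partners limma called 1, against 2.14% of all genes. Mycbp, a small protein that binds MYC, had 938 and 2397 in eGFP and 88.7 and 84.5 in mVEGF-C libraries. The mVEGF-C pair agreed closely and it fell by 4.10 on the log2 scale (limma, adjusted p = 0.0375), a call lost in edgeR (adjusted p = 0.0583), without the variance trend (limma, 0.0876) and with each of the 4 libraries left out (limma, adjusted p = 0.0534 to 0.999). DESeq2 called Mycbp (adjusted p = 5.36e-05), and its log2 fold change was -4.77 to -3.42 with 1 library left out. Mga, a large MAX partner, had a log2 fold change of 0.89.

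The other 6 lists had 0 calls in limma and edgeR. DESeq2 called Tnfaip3 (4.55% of the other early response genes) and Cry2 (11.1% of the clock genes), against 7.09% of all genes. At an unadjusted p under 0.05 in limma there were 3 of the other early response genes, 1 clock gene and 0 in the other 4 lists, that is 13.6% and 11.1% of these first lists against 11.8% of all genes. The 22 AP-1 partners and upstream kinases had 17 fold changes above 0 (77.3%, against 49.5% of all genes tested), and no set test was run. Their median was 0.53, with the kinases Mapk14 at 1.78 and Mapk7 at 1.71. Mapk14 was at 0.73 without mVEGF-C 2, and Mapk7 was at 0.92 without eGFP 2. Of 22 other early response genes 10 were above 0, with the NF-kB inhibitor Tnfaip3 at 3.64 (62.7 and 20.3 against 544 and 386) and Id2 at -2.25. Tnfaip3 was called by DESeq2 (adjusted p = 0.00439) and not by limma (adjusted p = 0.12). The 11 heat shock genes had a median of 0.20, with Hspa1b at -2.06 (-0.34 without mVEGF-C 2) and Bag3 at 0.92. The 10 genes of the integrated stress response had a median of 0.51, with Eif2s1 at -1.78 and Eif2ak3, the kinase PERK, at 1.56. Eif2ak3 was at 0.65 without mVEGF-C 1. Of the 8 KLF relatives and flow response genes Sp3 stood at 1.30 and Vwf at -0.83, and of the 9 core clock genes Cry2 at 2.53 and Nr1d1 at 1.37, where DESeq2 called Cry2 (adjusted p = 0.0308).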

How the data were processed

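RNA-seq was made from 2 mVEGF-C and 2 eGFP libraries. Per the submitters' processing notes, the authors used FastQC, Trimmomatic, Salmon and DESeq2 on mm10, and the sources used here give neither versions nor roles. The deposited values are a signal, normalised counts per gene, and 100% of them were whole multiples (within 0.001) of the smallest value above 0 in their library, so whole reads were recovered. As read from the values, genes had been limited by replicate agreement, so p-values are too small.

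The main test was limma 3.58.1 in R 4.3.3 (eBayes with trend, two-sided) on log2(normalised count + 1) where the mean reached 10 (9063 genes), with Benjamini-Hochberg adjustment over all of them. The fold change is on that scale and understates low genes. The prior degrees of freedom were infinite, so a gene's own spread did not enter its p. Values are mean ± SD or single libraries. Alternatives were other pseudocounts, filters, scalings and variance models, a replicate block, each library left out, edgeR 4.0.16 and DESeq2 1.42.0 on the recovered reads. The limma, edgeR and DESeq2 fits were tested on simulated counts. Those counts carried no limit on replicate agreement, so that test cannot show whether the p-values from this table are right. PCR duplicates cannot be told from separate molecules. By rule, genes named in full were the called ones and the 8 highest and 8 lowest fold changes with a mean of at least 50. The rule also took the highest mean of each family. From each list it took the called genes and the 2 largest absolute fold changes. Values of some other members in all libraries were also given, outside this rule. The members and lists were chosen with earlier results of these data known. The result of 1 further list is not reported here. Coordinates and exon lengths are from GENCODE vM21 on GRCm38 (mm10), matched by symbol for all 56 genes, and upstream sequence is from RefSeq (GRCm38.p6).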

Additional observations from a re-analysis of the deposited data

How the results depend on the processing

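Across all genes, limma called 75 higher and 119 lower. The counts were 15 and 26 without a variance trend, 289 and 329 in DESeq2, and 79 lower in edgeR. Leaving out 1 library gave 5 to 104 higher and 0 to 188 lower, with the lone library assumed to vary like the other group. The 0 lower came without eGFP 2, where 196 were lower at an unadjusted p under 0.05. With each gene's own variance, which was tried only after seeing the data, 0 and 0 genes were called, with 286 and 262 at an unadjusted p under 0.05 (4 and 3 of the 56). The members called higher were 0 without a trend, 2 in DESeq2 and 0 to 1 with 1 library left out, and those called lower were 2 in DESeq2. Limma without a trend gave 4 higher and 4 lower members at an unadjusted p under 0.05, of 449 and 599 genes in all. The median fold change of the 56 genes was -0.21 to 0.27 with 1 library left out. Rescaling to the same total or upper quartile shifted the median of all genes by -0.08.

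Across 9063 genes the correlation of the differences between libraries 2 and 1 in the 2 groups was 0.00013. No general pairing by replicate number was thus seen, and a pairing limited to some genes was not tested. With the replicate block 74 genes were called higher and 129 lower, and the adjusted p of Atf5 was 0.0125 (limma).

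Of the 56 genes, 31 kept the sign of their log2 fold change under all 15 alternatives. Atf1 turned to -0.065 (same total), -0.064 (upper quartile), -0.019 (quantile normalization), -0.037 (edgeR) and -0.058 (DESeq2). In edgeR and DESeq2, in that order, Klf3 turned to 0.049 and 0.026, Per2 to 0.41 and 0.38 and Zfp366 to 0.080 and 0.069. Btg1 was 0.0071 in edgeR and Zfp365 0.22 after quantile normalization. After rescaling to the same total and upper quartile, Nr4a3 was -0.070 and -0.069 and Socs2 -0.068 and -0.067. With 1 library left out, 25 genes took both signs: Atf1 -0.47 to 0.50, Atf7 -0.50 to 0.24, Btg1 -1.29 to 0.69, Cebpd -1.50 to 2.59, Cebpg -0.64 to 0.12, Cebpz -0.066 to 1.31, Creb1 -1.71 to 0.36, Creb3l2 -1.98 to 0.042, Klf13 -0.086 to 0.49, Klf3 -0.33 to 0.31, Klf4 -0.017 to 0.43, Klf9 -1.52 to 0.20, Mafg -1.45 to 0.76, Nr4a3 -1.51 to 1.54, Per1 -1.41 to 0.70, Per2 -1.55 to 1.19, Socs2 -0.68 to 0.71, Socs4 -0.016 to 2.09, Socs5 -2.55 to 0.37, Zfp36 -0.11 to 1.20, Zfp362 -0.78 to 0.027, Zfp365 -1.39 to 0.82, Zfp366 -2.82 to 1.01, Zfp369 -2.33 to 0.56 and Zfp36l1 -0.10 to 1.33. The cause was not tested in any of these.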
